A study of Rattus norvegicus with 25 samples.

Results

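The nuclear genes of the mitochondrial respiratory chain were examined in bulk poly-A RNA from the basolateral amygdala (BLA) and the dentate gyrus (DG) of the left hemisphere of adult male wild-type Sprague-Dawley rats. Members were the gene identifiers whose name starts with Nduf followed by a, b, c, s or v, with Uqcr, with Cox4 to Cox8 or with Atp5, or is Sdha, Sdhb, Sdhc or Sdhd, and whose mean in the control libraries of the region was at least 1 TPM (RNA abundance scaled by transcript length and by library). Of 26312 identifiers in each region, 98 carried such a name, and 93 in the BLA and 92 in the DG reached the minimum. The 92 DG members were all BLA members. Closest to the minimum, Cox8b lay inside at 1.15 TPM in the BLA and 1.38 TPM in the DG, and COX6A2 lay outside in the DG at 0.802 TPM. The identifier named Ndufs6, which the study's BLA gene lists hold, was at 0.267 TPM in BLA controls and 0.152 TPM in DG controls. It was therefore not a member.

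Stressed animals had been immobilized for 3 h in the presence of fox urine and were taken 9 days after the stressor, after a battery of anxiety-like behavior, and controls had stayed in the home cage. Stressed animals were also housed apart from the colony for 2 nights after the stressor. The stress-low group (resilient, composite behavior scores 0 to 2) and the stress-high group (susceptible, scores 13 to 15) were compared with each other and with controls (scores 0 to 6), in 13 libraries of the BLA and 12 of the DG, of which 7 and 6 were controls and each stress group gave 3 per region. The groups held different animals, 11 of the 14 animals gave a library of each region, and the behavioral tests were shared by all groups. Every stress-high animal had a number of 20 or lower and every stress-low animal a higher one, so animal number and stress group cannot be told apart in the comparison of the stress groups. For the BLA library of animal 35, whose labels disagreed on the treatment, the library name (control) was used.

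The respiratory chain sits in the inner mitochondrial membrane. Complex I (NADH dehydrogenase, Nduf genes) and complex II (succinate dehydrogenase, Sdh genes) pass electrons to ubiquinone, complex III (Uqcr genes) passes them on to cytochrome c, and complex IV (cytochrome c oxidase, Cox genes) passes them to oxygen. The proton gradient that complexes I, III and IV build drives complex V, the ATP synthase (Atp5 genes). Some core subunits of complexes I, III, IV and V are encoded by mitochondrial DNA and all other subunits by nuclear genes. The promoters of these nuclear genes often hold sites for the factors NRF1 and GABPA (NRF2). Neurons depend on this pathway for the ion pumping and vesicle cycling of synapses.

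The promoters of 5 members are shown, those with the smallest p in the DG comparison described further on for which RefSeq gave a sequence. All members with an unadjusted p under 0.05 there were lower in stress-low than in control, so the shared sign came with this choice. Promoters were available for 81 of the 93 member identifiers (matched by name, 77 distinct promoters, RefSeq on GRCr8), each running from 250 bases before to 50 bases after the start. Bases that match NRF1 (the letters GCGCA, 1 base of any kind and GCGC) or GABPA (the letters CCGGAAG) on either strand are in capitals, and the rest is in lower case, written 5′ to 3′ along the gene. The coordinates are those of GRCr8, which is not the build of the count files.
Ndufa6, chr7:115750268-115750567, - strand: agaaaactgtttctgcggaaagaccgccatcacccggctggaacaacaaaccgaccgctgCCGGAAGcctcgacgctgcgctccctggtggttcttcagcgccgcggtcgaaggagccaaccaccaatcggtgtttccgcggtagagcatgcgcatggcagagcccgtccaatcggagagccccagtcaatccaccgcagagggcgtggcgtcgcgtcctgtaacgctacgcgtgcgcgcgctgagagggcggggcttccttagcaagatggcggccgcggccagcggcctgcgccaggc
Ndufa11, chr9:1637364-1637663, + strand: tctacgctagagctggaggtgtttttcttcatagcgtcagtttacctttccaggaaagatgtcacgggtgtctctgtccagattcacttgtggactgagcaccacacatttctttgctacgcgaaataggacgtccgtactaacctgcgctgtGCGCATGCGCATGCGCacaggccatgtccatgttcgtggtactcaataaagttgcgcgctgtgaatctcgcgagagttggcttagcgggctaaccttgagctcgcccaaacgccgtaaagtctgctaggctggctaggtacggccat
Uqcrh, chr5:134790833-134791132, - strand: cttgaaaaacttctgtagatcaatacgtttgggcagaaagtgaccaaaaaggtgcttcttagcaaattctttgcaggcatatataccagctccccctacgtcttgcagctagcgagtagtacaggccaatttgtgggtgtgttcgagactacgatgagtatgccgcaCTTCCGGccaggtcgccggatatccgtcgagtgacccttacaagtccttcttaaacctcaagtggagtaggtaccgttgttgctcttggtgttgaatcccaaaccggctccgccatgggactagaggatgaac
Atp5g2, chr7:135678169-135678468, - strand: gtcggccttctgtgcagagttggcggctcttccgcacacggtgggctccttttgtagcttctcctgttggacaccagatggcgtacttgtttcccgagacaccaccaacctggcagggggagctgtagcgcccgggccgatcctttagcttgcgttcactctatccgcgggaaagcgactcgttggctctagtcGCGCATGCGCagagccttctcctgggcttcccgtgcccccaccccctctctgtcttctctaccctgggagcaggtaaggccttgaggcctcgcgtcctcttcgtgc
Cox7b, chrX:75148786-75149085, + strand: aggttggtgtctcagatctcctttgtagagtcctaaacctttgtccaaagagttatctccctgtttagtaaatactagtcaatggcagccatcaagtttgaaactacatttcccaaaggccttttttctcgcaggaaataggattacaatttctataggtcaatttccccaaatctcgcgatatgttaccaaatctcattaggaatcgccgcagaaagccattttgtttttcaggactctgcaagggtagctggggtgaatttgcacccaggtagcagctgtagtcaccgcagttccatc
Ndufa6 and Uqcrh held 1 GABPA match each, Atp5g2 held 1 NRF1 match, Ndufa11 held 2 overlapping NRF1 matches, and these letters were not found in the Cox7b window. Uqcr11, which also belongs to this group, had no entry. Over the 77 member promoters, 15 (19.5%) held an NRF1 match and 21 (27.3%) a GABPA match, against 4.25% and 8.75% of all 33469 promoters of this length. NRF1 matches were found in 0 of 13 complex IV promoters and 5 of 15 complex V promoters. These matches are a description of the letters, with no test.

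Depth was 12709493 to 22801247 expected counts per BLA library and 11656439 to 19477932 per DG library. The control of animal 2 in the BLA and that of animal 35 in the DG stood apart from the other libraries on the first principal component (scores of 46.4 and 56.0, others -17.3 to 12.5 and -13.7 to 2.28), and were left out of the tests, which leaves 6 BLA and 5 DG controls. The granule cell markers Prox1 (71.8 TPM in the DG, 2.59 TPM in the BLA) and C1ql2 (344 and 2.82 TPM) set the DG apart, whereas Calb1 (106 and 130 TPM) did not separate the regions. The amygdala marker Rspo2 was not higher in the BLA (12.2 TPM) than in the DG (17.8 TPM), and Slc17a7, which marks excitatory neurons of both regions, was at 1014 and 1801 TPM. Transcript lengths were cut by 50 bases in the BLA and by 261 to 274 bases in the DG before the values were scaled. This raises the TPM of short genes in the DG, so levels of the members are not compared between regions. The marker values above carry the same limit and are means over all 13 BLA and 12 DG libraries, with the 2 left-out controls.

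In the controls the members summed to 2.19% of all TPM in the BLA and 3.84% in the DG, and 72 of 93 and 75 of 92 members exceeded 100 TPM, with medians of 194 and 288 TPM. Complex IV had the highest median member (425 TPM in the BLA, 803 TPM in the DG), above complex V (328 and 498 TPM), complex III (207 and 222 TPM), complex I (155 and 269 TPM) and complex II (150 and 199 TPM). The 6 complex I assembly factors, which build the complex without being part of it, had medians of 21.2 and 21.0 TPM.

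Within complex I the highest members were Ndufb8 (368 ± 34.5 TPM, SD, n = 6) and Ndufa4 (367 ± 19.1 TPM) in the BLA, which differed by less than their spread. In the DG they were Ndufa3 (957 ± 93.5 TPM, n = 5) and Ndufb4 (694 ± 40.0 TPM). Ndufa4 is counted here by its name, although its product is now placed in complex IV. Ndufaf5 and Ndufaf3 led the assembly factors at 40.7 ± 1.55 and 25.8 ± 2.93 TPM in the BLA. In the DG the same pair stood at 46.0 ± 2.50 and 42.8 ± 3.48 TPM, within their spread of each other.

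Of complex II, Sdha, the flavoprotein, led in the BLA at 204 ± 13.1 TPM before the iron-sulfur subunit Sdhb at 159 ± 6.04 TPM, whereas in the DG Sdhb (224 ± 10.2 TPM) and Sdha (215 ± 7.99 TPM) lay within their spread. The small complex III subunit Uqcr11 was highest in both regions (544 ± 65.1 and 1155 ± 92.3 TPM), followed by the hinge protein gene Uqcrh in the BLA (395 ± 38.3 TPM) and Uqcrq in the DG (752 ± 68.5 TPM). Cox4i1, the ubiquitous form of subunit 4, led complex IV at 900 ± 74.0 TPM in the BLA and 1502 ± 77.1 TPM in the DG, followed by Cox6a1 (718 ± 86.2 TPM) in the BLA and Cox8a (1439 ± 58.7 TPM) in the DG. Complex V was led in the BLA by Atp5b (1097 ± 67.7 TPM), the catalytic beta subunit, before the alpha subunit Atp5a1 (616 ± 44.3 TPM), and in the DG by Atp5i (1630 ± 127 TPM) before Atp5b (1348 ± 63.1 TPM). The place of Atp5i rests on a transcript of 289 bases, of which few remained after the length was cut.

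Where a subunit has a ubiquitous and a tissue-restricted form, the ubiquitous form made up nearly all of the RNA. Cox4i2, the hypoxia-responsive form of subunit 4, was at 1.97 TPM in the BLA and 3.43 TPM in the DG, and Cox6b2, known from testis, was at 9.00 and 12.4 TPM against 647 and 803 TPM of Cox6b1. The heart and muscle forms COX6A2 (2.31 TPM in the BLA) and Cox8b (1.24 and 1.35 TPM) were low in the same way, as was Ndufa4l2 (2.56 and 4.18 TPM), which is induced by hypoxia. Cox8a, Cox7b and Cox6a1, the forms used by most tissues, stood at 595, 387 and 718 TPM in the BLA. The 3 genes that encode the same mature c-ring subunit of complex V were all well expressed. ATP5G3 was the highest of them at 476 ± 19.5 TPM in the BLA and 658 ± 31.4 TPM in the DG. Atp5g1 and Atp5g2 lay within their spread in the BLA (264 ± 30.4 and 238 ± 22.8 TPM), and in the DG Atp5g2 (507 ± 41.5 TPM) was above Atp5g1 (408 ± 31.2 TPM).

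**Figure D1:**
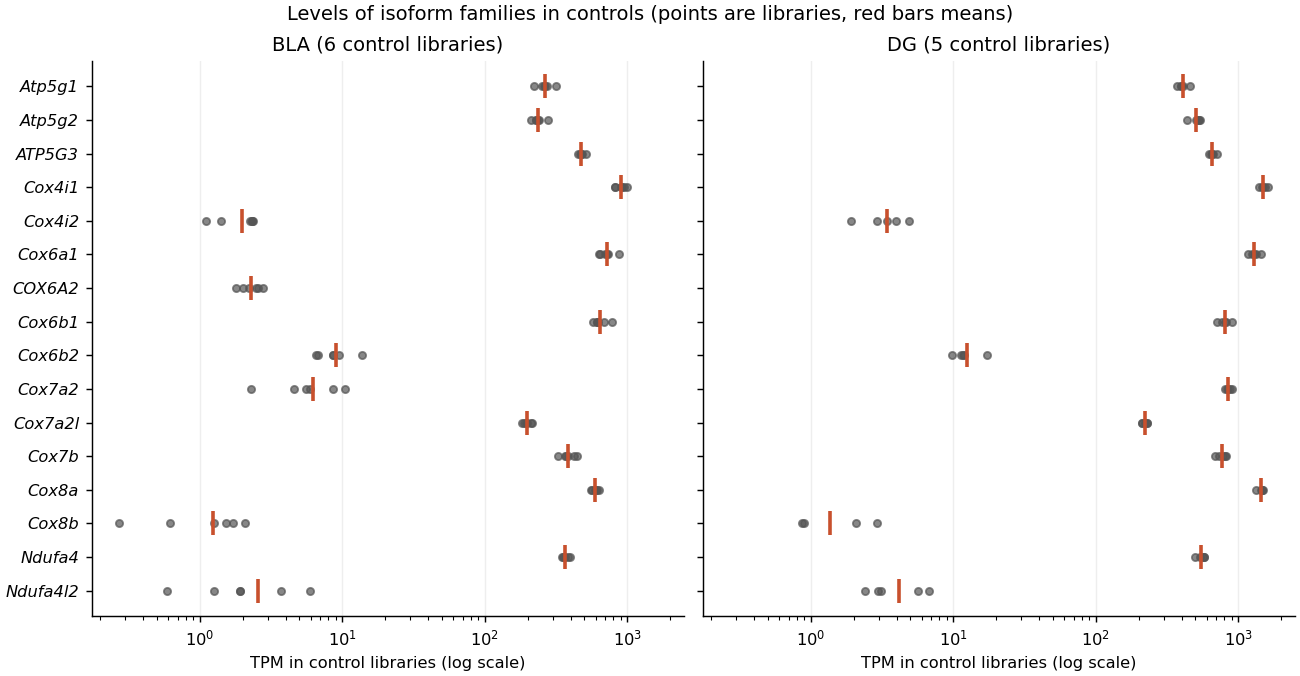
Levels (TPM, log axis) of the members of isoform families in the control libraries used in the tests, 6 of the BLA and 5 of the DG; points are libraries and red bars are means. Cox4i2, COX6A2, Cox6b2, Cox8b and Ndufa4l2 lie far to the left of Cox4i1, Cox6a1, Cox6b1, Cox8a and Ndufa4. One DG library with Cox8b listed at 0 cannot be drawn on this axis, and COX6A2 was not a member in the DG.

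Several members share reads with near-identical copies, and their levels are uncertain. Cox7a2 averaged 8.98 TPM over the tested BLA libraries and 841 TPM in the DG, while its copy Cox7a2l2 averaged 468 and 33.8 TPM. The sums of the pair ran from 437 to 536 TPM in the BLA and from 769 to 948 TPM in the DG. ATP5F1 and Atp5f1, identifiers with 1 name, likewise averaged 10.7 and 293 TPM in the BLA but 286 and 149 TPM in the DG. In each region 5 names were carried by 2 member identifiers each. The complex III gene Uqcr10 was at 207 TPM in BLA controls and 3.43 TPM in DG controls, and the reason was not tested. It fell below the minimum count in the DG and was not tested for group differences there. Cox8b and Ndufa4l2 were likewise not tested in either region.

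The first question was whether stress exposure or its behavioral outcome went with a different level of these genes in the BLA. No difference was detected there among the members. Of 91 members tested in the BLA, none passed an adjusted p of 0.05 in any of the 3 comparisons (edgeR quasi-likelihood test, Benjamini-Hochberg over 15230 genes), and none had an unadjusted p under 0.05. Among all genes 0 passed after adjustment, and the share with an unadjusted p under 0.05 was 1.16% higher and 1.6% lower in stress-low than in control, 1.16% higher and 1.42% lower in stress-high than in control, and 0.998% higher and 0.985% lower in stress-high than in stress-low. DESeq2 and limma also called no member after adjustment.

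The summed TPM of all BLA members was 20657 to 24190 in controls (median 21610). In stress-low it was 22116 in animal 34, 21567 in animal 30 and 23390 in animal 22, and in stress-high 22344 in animal 7, 20982 in animal 19 and 20917 in animal 20. The groups overlapped, and the highest library was the control of animal 17. The median log2 fold change over the members was -0.0065 in stress-low over control (42 of 91 above 0), -0.027 in stress-high over control (29 of 91) and -0.014 in stress-high over stress-low (32 of 91), beside -0.0020, -0.0037 and -0.00055 over all genes tested. The comparisons share libraries. Single libraries turned the sign. Without stress-high animal 20 the median of stress-high over control was 0.045, and without stress-high animal 7 it was -0.12 with 5 members lower at an unadjusted p under 0.05. The median standard error of a member's log2 fold change was 0.098 in both comparisons with controls and 0.11 between the stress groups.

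By complex the BLA medians stayed between -0.048 and 0.026. For stress-low over control they were 0.000078 (complex I), 0.014 (complex II), 0.0011 (complex III), -0.016 (complex IV) and -0.028 (complex V). For stress-high over control the largest were -0.039 in complex I and -0.040 in complex V. In TPM, stress-high lay wholly below stress-low for 13 of 91 members, beside 4.71% of all genes tested, and wholly above it for 0 (1.18%). By name 9 of the 13 belonged to complex I (among them Ndufv2, 251 and 221 TPM, and Ndufa11, 204 and 184 TPM) and 1 to its assembly factors. Complex I and its assembly factors made up 39 and 6 of the 91 members tested. Against controls, 2 members lay wholly higher in stress-low (Ndufa8 and Ndufa10, 1.1% of all genes) and 1 wholly lower in stress-high (Atp5sl, 0.598%). None of the 13 had an unadjusted p under 0.05.

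The widest BLA differences belonged to low or ambiguous genes. Cox7a2 ran from 2.29 to 10.5 TPM in controls (median 5.78), was at 16.5, 13.3 and 5.25 TPM in stress-low and at 18.3, 10.4 and 6.49 TPM in stress-high. The groups overlapped, and its log2 fold change of 0.96 (SE 0.45) in stress-high over control had an unadjusted p of 0.051 (edgeR). COX6A2 had a log2 fold change of -0.63 (SE 0.43) in stress-low over control at levels of 0.700 to 2.78 TPM.

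**Figure D2:**
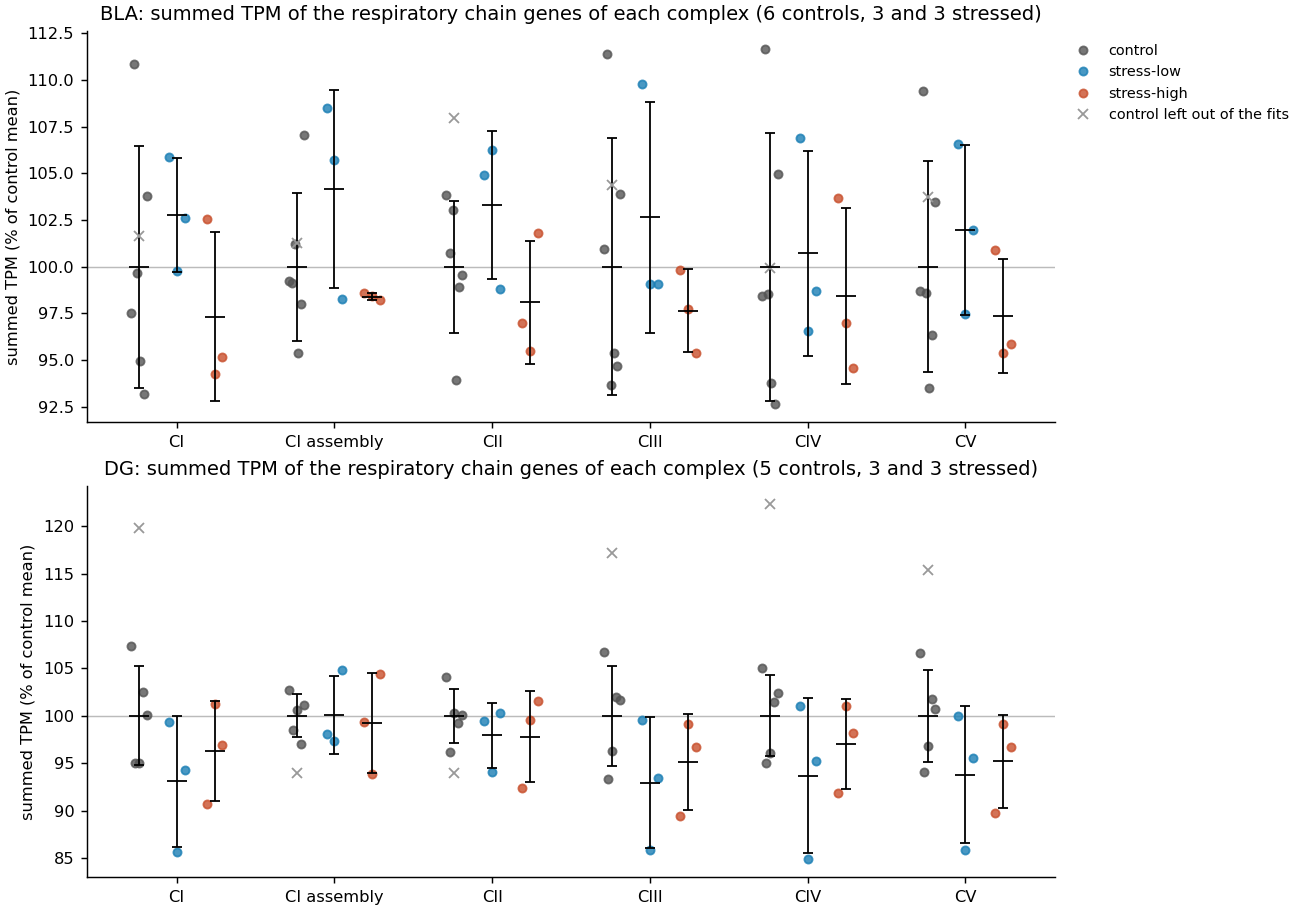
Summed TPM of the members of each complex in percent of the control mean of the region; points are libraries, black bars the mean and SD, and crosses the control that was left out of the tests. Groups overlap in the BLA, and in the DG 1 stress-low library (animal 33) lies lowest for complexes I, III, IV and V.

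In the DG the fold changes of the members leaned below 0 in stress-low animals, and no member passed the test. Of 89 members tested, 11 were lower in stress-low than in control at an unadjusted p under 0.05 and 0 were higher, while 3.03% of all 14080 genes were lower and 3.88% higher. No member passed after adjustment (smallest adjusted p = 0.718, edgeR) and no gene of the table did. DESeq2 and limma called no member after adjustment either, and DESeq2 called 5 other genes. The median log2 fold change was -0.069 over the members (23 of 89 above 0) and -0.0030 over all genes. Bulk RNA cannot tell fewer cells of a type from less RNA per cell.

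By complex the median log2 fold change was -0.075 in complex I (7 of 39 lower at p under 0.05), -0.036 in complex III (2 of 8), -0.11 in complex IV (1 of 14) and -0.064 in complex V (1 of 18). Complex II had a median of -0.027 and the complex I assembly factors one of 0.058, with none of 4 and none of 6 below an unadjusted p of 0.05. The difference between complexes was not tested.

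Values of the 6 members with the smallest p follow, with controls in the order of animals 2, 14, 17, 28 and 32, stress-low in that of 22, 33 and 34 and stress-high in that of 7, 19 and 20. Ndufa6, an accessory subunit of complex I, was at 377, 353, 387, 366 and 359 TPM in the controls, at 327, 295 and 349 TPM in stress-low and at 338, 346 and 356 TPM in stress-high. All stress-low libraries lay below all controls, and its log2 fold change was -0.19 (SE 0.061), with an unadjusted p of 0.0073 and an adjusted p of 0.718 (edgeR). The complex I subunit Ndufa11 was at 512, 453, 404, 489.9 and 492.9 TPM in controls, 433, 392 and 399 TPM in stress-low and 417, 479 and 445 TPM in stress-high. The groups overlapped through the control of animal 17, and the log2 fold change was -0.21 (SE 0.082).

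In complex III, Uqcrh was at 677, 581, 585, 593 and 610.3 TPM in controls, 571, 515 and 539 TPM in stress-low and 558, 629 and 583 TPM in stress-high. Stress-low lay below every control (log2 fold change -0.18, SE 0.069), and stress-high spanned both. Uqcr11 was at 1271, 1013, 1174, 1164 and 1154 TPM in controls, 1103, 902 and 992 TPM in stress-low and 924, 1082 and 1102 TPM in stress-high, with overlap and a log2 fold change of -0.22 (SE 0.083).

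The c-ring gene Atp5g2 was at 531, 435, 508, 523 and 536 TPM in controls, 428, 437 and 479 TPM in stress-low and 472, 486 and 462 TPM in stress-high, with a log2 fold change of -0.18 (SE 0.063). Its lowest control, animal 14, fell inside the stress-low range. Of the other c-ring genes, ATP5G3 averaged 658 TPM in controls and 688 TPM in stress-low and Atp5g1 408 and 375 TPM. Cox7b, a small subunit of complex IV, was at 684, 781, 729, 802 and 822 TPM in controls, 689.6, 567 and 669.9 TPM in stress-low and 709, 883 and 737 TPM in stress-high. Its log2 fold change was -0.26 (SE 0.092) in stress-low over control. The other 5 of the 11 were complex I genes (Ndufa3, Ndufb2, Ndufb3, Ndufb8 and Ndufb10, named here after their values were seen), with log2 fold changes from -0.24 to -0.15. In TPM, 4 of 89 members were lower in all stress-low libraries than in all controls, beside 1.79% of all genes tested, and 0 were higher (1.92%). They were Ndufa6, Uqcrh, Ndufa3 and Uqcrb. The identifier UQCRB, which has the same name as Uqcrb, went the other way, with means of 229 TPM in controls and 243 TPM in stress-low. The call for Uqcrb therefore holds for that identifier and not for the name.

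**Figure D3:**
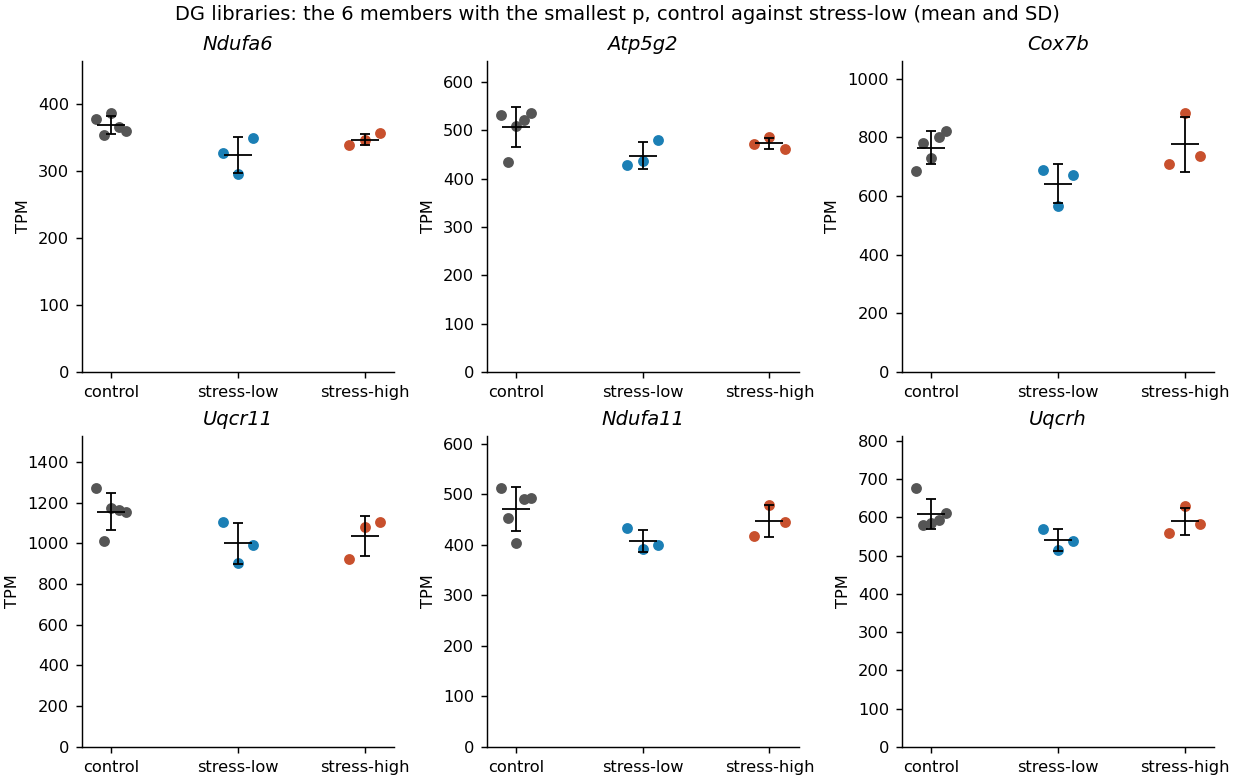
TPM of Ndufa6, Atp5g2, Cox7b, Uqcr11, Ndufa11 and Uqcrh in the DG libraries; points are libraries (5 controls, 3 stress-low, 3 stress-high) and bars the mean and SD. Only Ndufa6 and Uqcrh have every stress-low point below every control, and the distance is small beside the level.

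The count rested on single libraries. Without the stress-low library of animal 33 it fell from 11 to 1 and the median to -0.019, without animal 34 to 3, without animal 22 it rose to 25, and without the control of animal 2 it was 3 and without that of animal 28 it was 7. With the left-out control of animal 35 it was 11 again and the median -0.15. That library had the highest summed TPM of the members (45445, other controls 36334 to 40818), and the study, without naming the animal, set aside a DG control that had been re-extracted for low RNA quality. Animal 33 had the lowest sum (32903), with 38391 and 36458 in the other stress-low libraries and 34825 to 38522 in stress-high. With animal number above 20 as a covariate the count was 3. The share of all genes under 0.05 is not given here for any re-run. These counts therefore do not show whether the members or all genes changed.

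Short genes other than the members had medians on the same side of 0. Members are short (median 678 bases among those tested, 2076 over all genes tested), and by length their median log2 fold change in stress-low over control was -0.14 under 500 bases (22 members), -0.096 from 500 to under 1000 (38), -0.011 from 1000 to under 2000 (25) and 0.028 at 2000 bases or more (4). The other tested genes gave -0.088, -0.053, -0.0054 and 0.0079 in the same bins. At an unadjusted p under 0.05 (edgeR), 4 of 22 members under 500 bases and 7 of 38 from 500 to under 1000 were lower. Of the longer members 0 were. Of the other genes, 28 of 333 and 59 of 1396 were lower in the 500 and 1000 base bins, and 2 and 25 were higher. Cytosolic ribosomal protein genes, which are short and abundant as well, had a median of -0.10 over 102 genes, with 23 lower and 0 higher at an unadjusted p under 0.05. With per-library offsets for gene length the count of members fell to 5 and their median to -0.032. The bases cut from the transcript lengths, which follow the fragment length, were 261 to 272 in controls, 269 to 274 in stress-low and 264 to 272 in stress-high. The part of fragment length in the result was not tested. In the BLA, where the cut was 50 bases in every library, members under 500 bases had a median of 0.011 and the other genes of that length one of 0.0071. A cut that is the same in every library does not show whether fragment lengths differed there. In BLA stress-high over control, members of 500 to under 1000 bases had a median of -0.056 (6 of 38 above 0). Members under 500 bases had -0.0038 there, members of 1000 to under 2000 bases -0.016, and other genes of 500 to under 1000 bases -0.013.

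**Figure D4:**
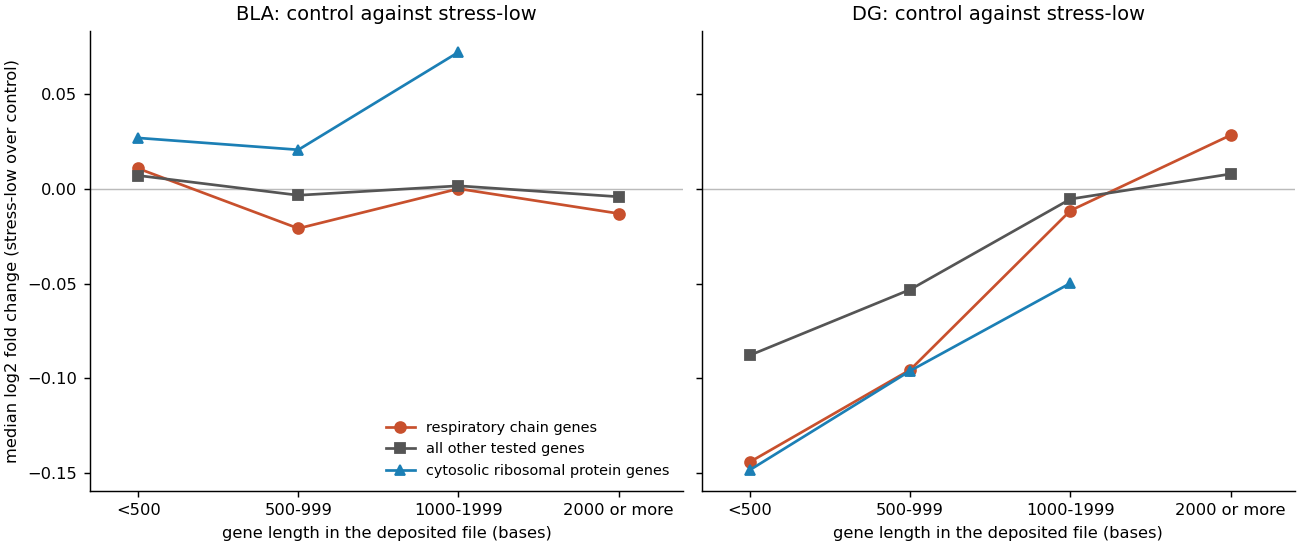
Median log2 fold change of stress-low over control by gene length in bases for the respiratory chain members, all other tested genes and cytosolic ribosomal protein genes. In the DG all 3 lines start lowest under 500 bases (-0.14, -0.088 and -0.15) and rise with length, and in the BLA they do not.

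In the DG 0 of 89 members had an unadjusted p under 0.05 in stress-high over control (1.07% of all genes higher, 1.12% lower), with a median of -0.028 and 25 of 89 above 0. With the left-out control the median was -0.12. In TPM 1 member lay wholly lower in stress-high (Uqcrb, 0.916% of all genes) and 0 wholly higher (0.547%). The identifier UQCRB of the same name averaged 229 TPM in controls and 233 TPM in stress-high. Between the stress groups 1 of 89 members was higher in stress-high and 0 were lower (1.73% and 1.4% of all genes), with a median of 0.028 and 60 of 89 above 0. That member was Cox7b, whose 3 stress-high libraries lay above the 3 stress-low ones, as in 4.18% of all genes. Its log2 fold change was 0.30 (SE 0.10), with an unadjusted p of 0.011 and an adjusted p of 0.9996 (edgeR). The count was 0 without stress-high animal 19 or stress-low animal 33 and 6 without stress-low animal 22. Stress-high lay wholly below stress-low for 2 members (Sdhd and Ndufb6, 4.51% of all genes). The 3 comparisons share libraries, so these values are not independent.

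**Figure D5:**
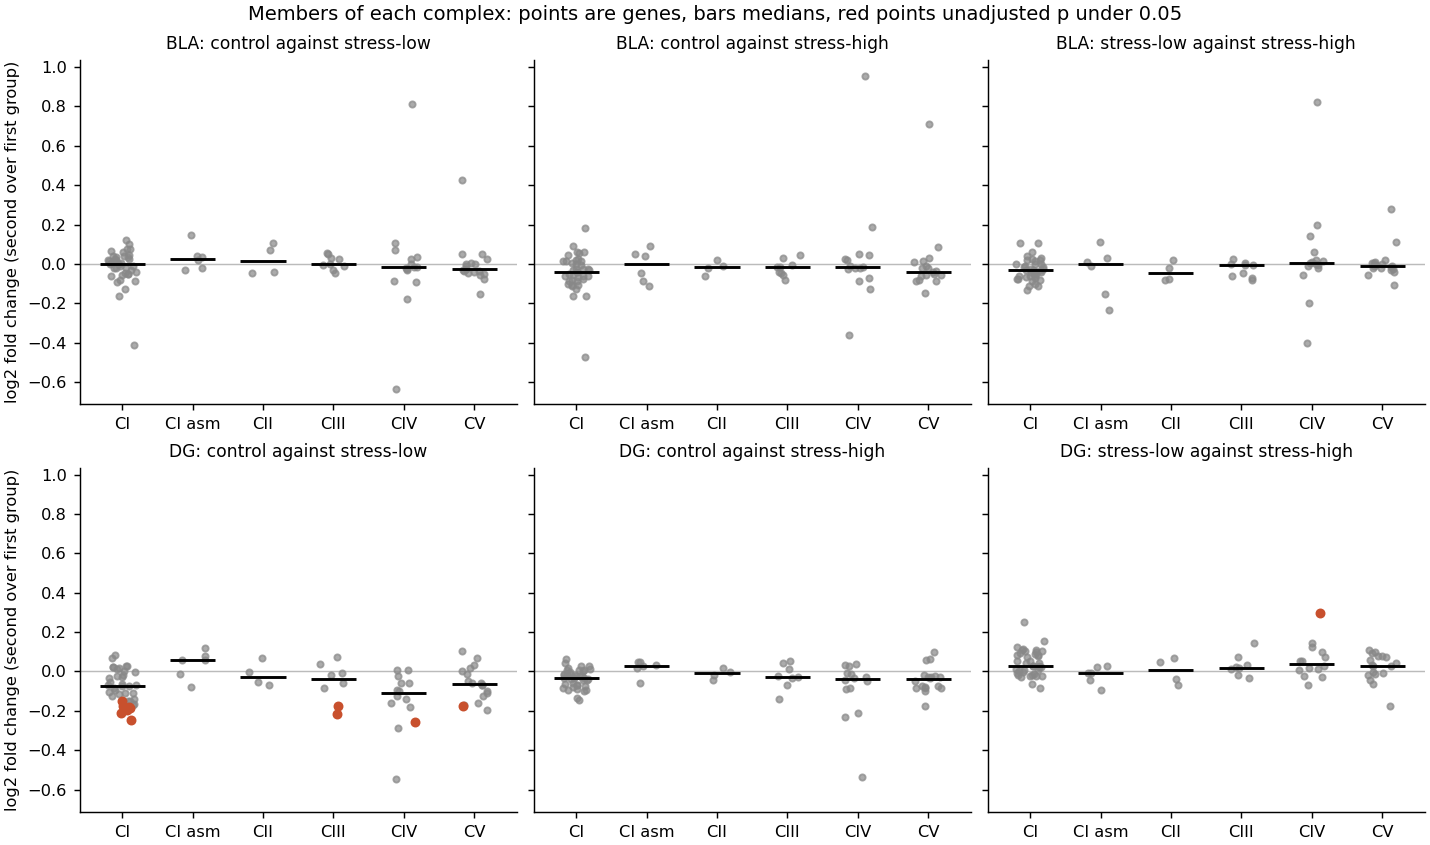
Log2 fold change of every tested member, second group over first, by complex, region and comparison; points are genes, black bars medians, and red points have an unadjusted p under 0.05. Red points appear only in the DG, 11 below 0 in stress-low over control and 1 above 0 between the stress groups.

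Whether the regions responded differently was tested in 1 fit of both regions with 90 members among 15453 genes. None passed after adjustment (edgeR). For stress-low over control 2 members had a lower fold change in the DG at an unadjusted p under 0.05 and 0 a higher one (1.59% and 1.62% of all genes), Ndufa6 with a difference of -0.31 (SE 0.13) and the ambiguous Cox7a2 with -0.91 (SE 0.41). The median difference was -0.080, beside -0.014 over all genes. It also rested on single libraries. The count was 0 without DG animal 33 (median -0.015) or BLA animal 22 (-0.030), 1 without BLA animal 27, 32 or 34, 4 without BLA animal 30 (-0.14) or DG animal 22 (-0.13), and 6 without BLA animal 17 (-0.11). With all mapped libraries it was 6 with a median of -0.19, and with gene length offsets 5. With the animal as a block, which uses the 9 animals measured in both regions, 1 member was under 0.05 and the median was -0.040. For stress-high over control 1 member, again Cox7a2, was under 0.05 (0.835% of all genes lower), and 0 were higher (1%). Between the stress groups 0 were (1.26% of all genes higher, 0.744% lower). Without BLA animal 7 these counts were 2 and 4, all higher in the DG. Without BLA animal 17 or DG animal 19 the first was 2, and without BLA animal 30 the second was 1. The medians were -0.0094 and 0.059.

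The subunits encoded by mitochondrial DNA had median fold changes above 0 in all 3 DG comparisons, whereas the nuclear members were below 0 in both comparisons with controls. The difference between the lists was not tested. Of 13 such genes in the DG, 12 had a log2 fold change above 0 in stress-low over control (median 0.091), and 1 had an unadjusted p under 0.05, MT-ATP8 (0.75, SE 0.26), which overlaps MT-ATP6 on the genome, so that their reads cannot be fully told apart. In stress-high over control the median was 0.14, and between the stress groups it was 0.027 (7 of 13 above 0, nuclear members 0.028), with 0 under 0.05 in both. In the BLA 1 of 13 was above 0 in stress-low over control (median -0.17), and MT-ND6 was at -0.22 (SE 0.0997) with an unadjusted p of 0.043 in edgeR. None passed after adjustment in edgeR. Together they took 13.8% to 20.3% of the TPM in the tested BLA libraries and 11.3% to 18.7% in the DG. Their sum was 2.77 times that of the nuclear members in the DG control of animal 2 and 5.51 times in animal 33, which are the lowest and highest DG values. Both sums are parts of the fixed TPM total of a library, so a larger share of one leaves less for the other. The ratio is therefore not independent of the summed TPM of the members.

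No gene around the pathway passed after adjustment (edgeR). In the DG, stress-low over control, 26 assembly factors outside the name pattern had 2 higher and 1 lower at an unadjusted p under 0.05 (median -0.0075), among them the 2 identifiers named Cox11, which went in opposite directions (0.25 and -0.27). Of 11 genes for transcription factors and mitochondrial DNA expression, 1 was higher and 2 were lower (median 0.0023), with the coactivator gene Pprc1 at -0.21 (SE 0.064) and the mitochondrial transcription factor TFB2M at 0.19 (SE 0.084). Of 7 electron carriers and remaining subunits, MP68, a small proteolipid of complex V, was lower (-0.88, SE 0.38). The citric acid cycle had 1 of 16 higher (Sucla2, 0.16, SE 0.073), the carriers and porins 0 of 6, and glycolysis 0 of 17 (median -0.039). In the BLA these lists gave 0 genes under 0.05 in stress-low over control, and in stress-high over control Cycs, the gene of cytochrome c (-0.19, SE 0.085), and Bcs1l, a complex III assembly factor (-0.21, SE 0.091). Between the stress groups Polrmt, the mitochondrial RNA polymerase, was the only one in the BLA (0.18, SE 0.078), and Cox18, a complex IV assembly factor, in the DG (0.29, SE 0.12). For stress-high over control in the DG they were MP68 (-0.91, SE 0.36), Ttc19, a complex III assembly factor (0.14, SE 0.064), and Idh3B of the citric acid cycle (-0.15, SE 0.059).

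Markers of other cell types were examined beside these values, and none passed after adjustment (edgeR). In the DG all 7 oligodendrocyte markers were above 0 in stress-low over control (median 0.11), among them Cldn11 at 0.29 (SE 0.13), and the summed marker TPM was 1607 to 2192 in controls, 2010 to 2166 in stress-low and 1810 to 2170 in stress-high. Of 7 neuron markers Snap25 was higher (0.19), and 0 of 6 astrocyte, 0 of 6 microglia, 0 of 4 endothelial and 0 of 4 granule cell markers were under 0.05 there. All 4 granule cell markers were nevertheless below 0 in stress-low over control (median -0.12, lowest -0.66) and above 0 in stress-high over stress-low (median 0.10). Their summed levels were 455 to 732 TPM in controls, 443 to 525 in stress-low and 475 to 591 in stress-high. The granule cell list includes Calb1, which did not separate the regions, and Dsp, at 0.82 to 10.3 TPM in the DG. All 4 endothelial markers were also below 0 in stress-low over control (median -0.12), at 45.3 to 65.7 TPM in controls and 42.7 to 53.4 in stress-low. In stress-high over stress-low 3 of 4 endothelial markers were above 0 (median 0.053). Microglia medians were -0.055 in stress-low over control and 0.011 in stress-high over stress-low, with 3 of 6 markers above 0 in each. The granule cell, endothelial and microglia medians had the signs of the respiratory chain medians. Oligodendrocyte and neuron medians had the opposite signs, and astrocyte medians were below 0 in both. Neuron markers were split, with 4 of 7 above 0 in stress-low over control and 3 of 7 in stress-high over stress-low. Both comparisons share the stress-low libraries, so their signs are not independent. Choroid plexus markers summed to at most 0.590 TPM. In the BLA the oligodendrocyte list had 7 of 7 above 0 in stress-low over control (median 0.18, 1 under 0.05). Striatal and central amygdala markers summed to 60.4 to 165 TPM in controls, 78.5 to 161 in stress-low and 73.6 to 80.2 in stress-high. Of these, 4 of 4 were above 0 in stress-low over control (median 0.53) and 0 of 4 in stress-high over stress-low (median -0.64, lowest -1.63). In stress-high over control 1 of 4 was above 0 (median -0.14), and none was under 0.05 in any comparison. In stress-high over control 1 of 7 neuron markers was higher in the BLA and 1 of 6 astrocyte markers lower in the DG at an unadjusted p under 0.05. The part of tissue make-up in the member values was not tested.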

How the data were processed

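Total RNA of the left BLA and DG was sequenced after poly-A selection. The authors aligned reads with STAR 2.6.0a (Rn5, Ensembl 75) and quantified genes with RSEM 1.3.1. The deposited tables give per gene and library an expected count (RSEM's estimate of its reads, need not be whole), a TPM value and lengths in bases, with no other normalization. For the tests, these estimates were set to whole numbers and fitted per region as 3 group means by edgeR 4.0.16 (quasi-likelihood, TMM scaling, genes under filterByExpr's minimum count of 10 removed), with Benjamini-Hochberg adjustment over all genes. A fold change is the second group over the first. The study's EBSeq was not used here. The study set aside a control library in each region after a PCA; here it was the control farthest from the median on PC1. Members, lists and tests were chosen with earlier results of these data known. Named members were the 2 highest of each complex in controls, up to 6 with the smallest unadjusted p under 0.05 per comparison, and isoform families. DESeq2 1.42.0, limma 3.58.1 on log2(TPM + 1) and other settings were alternatives. The edgeR fit was tested on simulated data. The value of 1 marker gene is not reported here.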

Additional observations from a re-analysis of the deposited data

Results flagged for a closer look

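Dixon's test, which flags about 1 in 20 groups by chance, was applied to the controls of each region for the summed TPM of each complex and for the named members (67 sets of values), and 4 passed it. In the BLA, Uqcr11 was at 668 TPM in animal 17, with the other 5 controls between 486 and 550.1 TPM. Animal 17 also had the highest summed TPM of complexes I, III, IV and V in that region. The BLA value of Atp5b in animal 28, 965 TPM, was below the others (1100 to 1155 TPM). In the DG, Atp5g2 was at 435 TPM in animal 14 and at 508 to 536 TPM in the other 4 controls. Cox6b2 was at 17.2 TPM in animal 32 and at 9.87 to 11.9 TPM in the others. No cause was tested.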

How the results depend on the processing

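No member passed an adjusted p of 0.05 in any comparison under any alternative run. In the DG, stress-low against control, the count of members with an unadjusted p under 0.05 was 11 and became 7 with a replicate block, 3 with animal number above 20 as a covariate and 5 with gene length offsets, and leaving out 1 library gave 1 to 25. With all mapped libraries the median log2 fold change of the members moved from -0.069 to -0.15 in this comparison and from -0.028 to -0.12 in stress-high against control, and length offsets together with all mapped libraries, chosen after seeing the data, gave -0.075 with 8 members. Every other median moved by less than the spread of the library medians (SD 0.11 in the BLA, 0.069 in the DG and 0.13 for the region difference), although leaving out 1 library let medians change sign in the BLA (-0.12 to 0.062 over the 3 comparisons), between the DG stress groups (-0.010 to 0.080) and in the region difference for stress-high over control (-0.093 to 0.079) and between the stress groups (-0.026 to 0.17). The 6 DG members with the smallest p and Cox7b between the stress groups kept their direction under all alternatives. In the BLA, unadjusted counts went from 0 to at most 5. No count of an alternative was set beside the share of all genes in the same run. The replicate numbers of the titles did not pair the libraries, as the deviations of same-numbered libraries correlated between -0.25 and 0.11. The median standard error of a member's log2 fold change was 0.078 to 0.11. Ndufa6 at -0.19 and Cox7b at 0.30 did not pass after adjustment, so the lack of a call does not show that changes of this size are absent.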
